A study of Mus musculus with 28 samples.

Results

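The lysosome was read in mouse liver through 38 of its genes, all of which were present among the 32544 genes of the deposited tables. They were taken by gene symbol from a named set and cover 7 roles. These are 4 membrane proteins (Lamp1, Lamp2, Scarb2, Mcoln1), 11 proteases (Ctsa, Ctsb, Ctsc, Ctsd, Ctsf, Ctsh, Ctsk, Ctsl, Ctsz, Lgmn, Tpp1) and 6 genes of lipid breakdown and its helpers (Lipa, Asah1, Smpd1, Psap, Gm2a, Grn). A further 9 are enzymes of sugar chains (Gaa, Gla, Glb1, Gusb, Hexa, Man2b1, Naglu, Neu1, Sgsh), of which Sgsh is a sulfatase and the others cleave sugars. The rest are 2 acid phosphatases (Acp2, Acp5), 3 proton pump subunits (Atp6v0d2, Atp6v1a, Atp6v1h) and 3 transcription factors (Tfeb, Tfe3, Mitf). All 38 passed the filter on low counts in each sex, among 14078 genes tested in males and 13999 in females.

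RNA came from whole, snap-frozen livers of 28 C57BL/6 mice aged 13 weeks by their labels, with 1 library per mouse. Floxed control mice (CT) and mice with c-Myc deleted in endothelial cells (KO) were all given tamoxifen at 5 weeks, which switches on Cre in the KO mice. From 2 weeks later, both genotypes were kept for 5 weeks on a low-fat control diet (CTD) or on a diet rich in fat and cholesterol (HFC). These times sum to less than the labelled age of 13 weeks, and both are given here as they stand. The 8 groups of sex, genotype and diet held 4 males or 3 females each. The labels do not name the promoter that drives Cre. The mice of the 2 diets carry separate ranges of animal numbers, so diet and any cohort or handling difference that goes with the numbers cannot be told apart.

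Lysosomes are acidic organelles in which proteases, lipases, glycosidases and phosphatases break down material delivered by endocytosis, phagocytosis and autophagy. A proton pump, the V-ATPase, keeps them acidic, and heavily glycosylated membrane proteins such as LAMP1 and LAMP2 line them. Transcription factors of the MiT/TFE family (TFEB, TFE3 and MITF) switch on many lysosomal genes by binding the CLEAR motif, an E-box of the letters TCACGTG, and the kinase complex mTORC1 keeps these factors out of the nucleus when nutrients are plentiful. In liver, hepatocytes use lysosomes for lipid and protein turnover, and macrophages, the resident Kupffer cells among them, are rich in lysosomes.

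Each male library held 22154774 to 22652285 counts in all, and each female library 18741939 to 19195502. The 7 hepatocyte markers (Alb, Apoa1, Ttr, Serpina1a, Fgb, Tat and Hnf4a) summed to 66140 to 106600 CPM, the count scaled by library depth, in the male livers and 93480 to 172900 CPM in the female livers. Myc, the targeted gene, ran from 3.58 to 12.4 CPM in CT males and 3.09 to 20.1 CPM in KO males, and from 4.38 to 11.97 CPM in CT females and 4.65 to 20.5 CPM in KO females. It was not called in any comparison, and its level in whole liver does not check a deletion in endothelial cells. CPM values are scaled with trimmed mean of M-values (TMM) factors within each sex, so levels are not compared between the sexes. In whole tissue, fewer cells of a type and less RNA per cell cannot be told apart.

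The 38 genes spanned a wide range of expression. Per kilobase of exon, CT males on CTD had the highest level for Lamp1, at 198 ± 7.60 CPM per kb (SD, n = 4), followed by Psap, the precursor of the saposins, at 159.7 ± 7.64 and Ctsd, cathepsin D, at 122 ± 19.2. The animals of these 3 neighbours in the order did not overlap. Ctsz at 94.2 ± 4.26 and Ctsb at 93.7 ± 7.32 CPM per kb came next and overlapped each other. At the other end, Tfe3 at 2.64 ± 0.21, Sgsh at 2.14 ± 0.31 and Tfeb at 1.72 ± 0.22 CPM per kb overlapped from neighbour to neighbour. They were followed by Gla at 1.30 ± 0.10, Mitf at 0.634 ± 0.075, Ctsk, the cathepsin of osteoclasts, at 0.389 ± 0.34 and Atp6v0d2 at 0.264 ± 0.14 CPM per kb, where the last 3 overlapped in the same way. The order of the group means at the top differed between the diets. On HFC, Psap had the highest mean, with 223 ± 33.4 in CT males and 248 ± 24.1 CPM per kb in KO males. Lamp1 followed with 213 ± 20.7 and 217 ± 10.1. The animals of these 2 genes overlapped in both groups, and the order was not read within single livers. In CT females on CTD the order was Lamp1 at 166 ± 9.48, Ctsz at 142 ± 5.75 and Psap at 129.7 ± 21.2 CPM per kb (SD, n = 3), the last 2 of them overlapping. Between the 4 CT males on CTD, the coefficient of variation had a median of 8.24% over the 38 genes, from 1.12% for Ctsf to 87.0% for Ctsk.

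**Figure D1:**
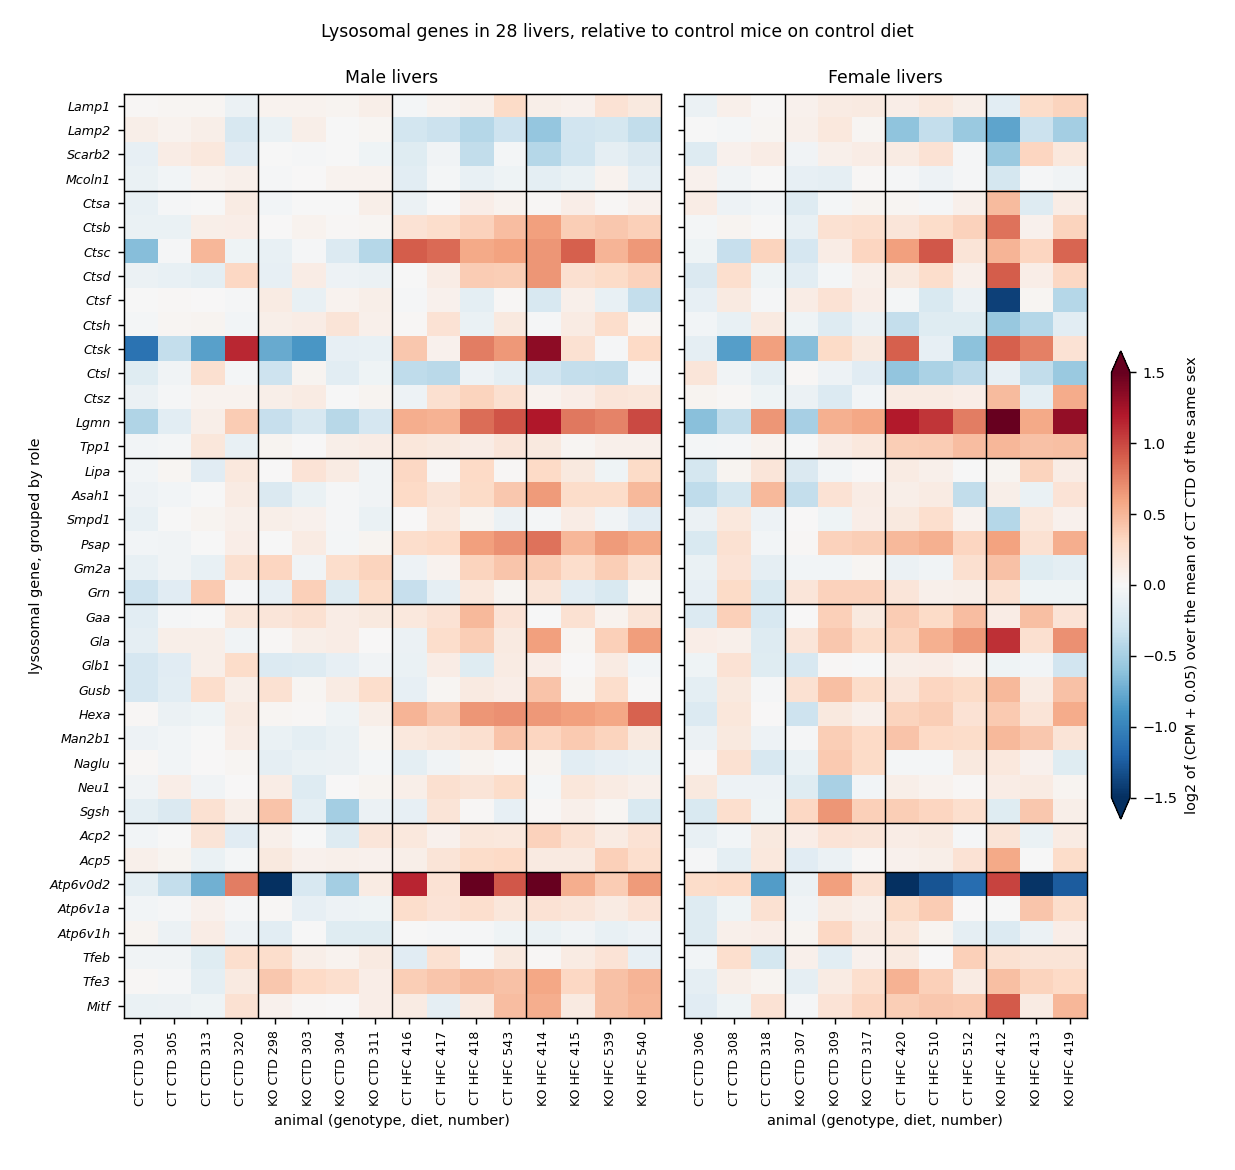
Heat map of the 38 lysosomal genes (rows, grouped by role) in each of the 28 livers (columns, by genotype, diet and animal number), coloured by the log2 ratio of CPM (with 0.05 added) to the mean of CT mice on CTD of the same sex; colours stop at the ends of the scale. In males, Ctsb, Ctsc, Lgmn, Asah1, Psap, Hexa, Man2b1 and Atp6v1a are on the warm side in the 8 HFC livers and Lamp2 is cool.

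A part of the lysosomal genes differed between the HFC and CTD groups, mostly higher on HFC and by modest amounts. In CT males 11 of the 38 rose and 1 fell, which is 31.6% of them, where 20% of all tested genes were called in either direction, 10.6% higher and 9.4% lower (edgeR quasi-likelihood test, adjusted p under 0.05). In KO males 10 rose and 1 fell, 28.9% of the 38, against 29.1% of all tested genes, 15.5% higher and 13.6% lower, so that the share called in KO males was at the background. The median log2 fold change of the 38 was 0.165 in CT males and 0.0899 in KO males, where the medians of all tested genes were -0.0103 and -0.0156. Of the called genes, 9 were called in both genotypes of males, namely Asah1, Atp6v1a, Ctsb, Ctsc, Hexa, Lamp2, Lgmn, Man2b1 and Psap; these 2 comparisons use different mice but one estimate of the spread. Leaving out each of the 16 males in turn, 6 of the 12 calls in CT males held in every fit (Ctsc, Lgmn, Psap, Hexa, Atp6v1a and Tfe3), as did 9 of the 11 in KO males. Between 6 and 13 genes were then called higher in CT males, the fewest without the animal numbered 305. The calls of Ctsb and Asah1 in CT males were lost without the animals 301, 305 or 543, that of Gaa without 301, 305, 313 or 418, and that of Man2b1 without any of these 5. Acp5, Gaa and Tfe3 passed the threshold in CT males and Atp6v0d2 and Ctsd in KO males, and no difference between the genotypes passed the test for any of them. The direction counts depend on the scaling of the libraries. Scaled by plain library totals, without TMM factors, the median of all genes moves to 0.217 in CT males and 0.26 in KO males. Of the 38, 23 and 28 are then called higher and none lower. The shares of all genes given above are from the TMM fit of all males. Counts with library totals or with 1 animal left out have no such share beside them. They are not read as results about the lysosomal genes.

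**Figure D2:**
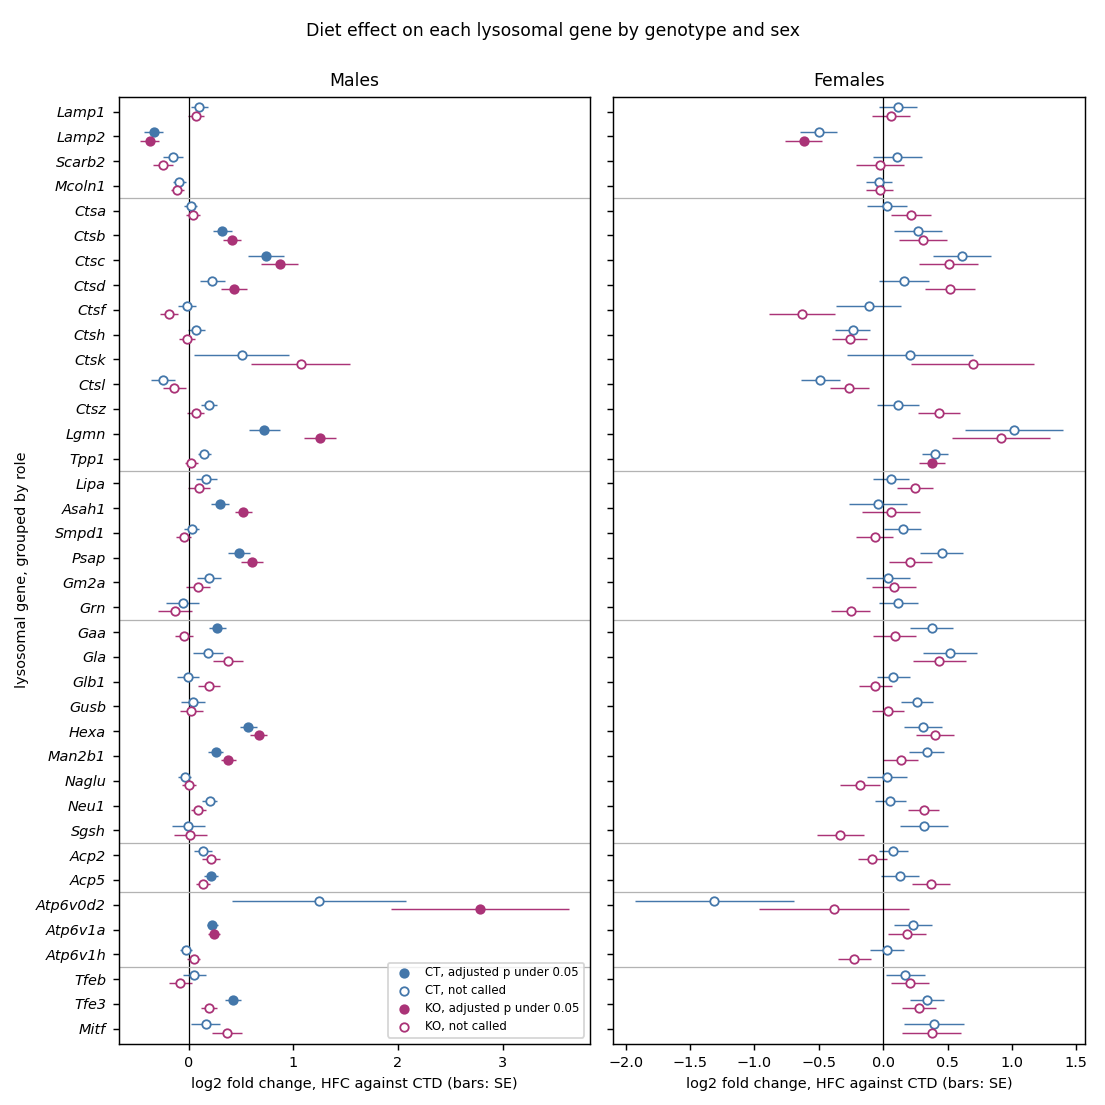
Log2 fold change, HFC against CTD, of each of the 38 genes (rows, grouped by role) in males and females, with CT in blue and KO in purple; bars are the SE and filled points have an adjusted p under 0.05. Filled points lie mostly to the right of 0 in males, Lamp2 lies to the left of 0 in all 4 comparisons, and females have 2 filled points, both in KO mice.

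Among the membrane proteins, Lamp2, which lines the lysosome and takes part in chaperone-mediated autophagy and fusion with autophagosomes (chromosome X, 38401357 to 38456454, minus strand of GRCm38), was the 1 member that fell. On CTD it stood at 625, 608, 623 and 498 CPM in CT males and 548, 627, 585 and 598 CPM in KO males. On HFC it stood at 487, 469, 437 and 473 CPM in CT males and 395, 483, 488 and 457 CPM in KO males. The highest HFC male of each genotype lay below the lowest CTD male of that genotype. The log2 fold change was -0.33 ± 0.092 (SE), adjusted p = 0.0171 in CT males and -0.37 ± 0.092 (SE), adjusted p = 0.00594 in KO males. Female livers held 512, 504 and 523 CPM in CT and 540.3, 571 and 524 CPM in KO mice on CTD, against 337, 399 and 349.7 CPM and 296, 409 and 361 CPM on HFC. All female HFC values lay below all female CTD values, and the fall passed the test in KO females (-0.62 ± 0.14 (SE), adjusted p = 0.0195), while CT females gave -0.50 ± 0.14 (SE), adjusted p = 0.0855. With plain library totals Lamp2 stayed below 0 in all 4 comparisons, at -0.10 in CT males, -0.099 in KO males, -0.21 in CT females and -0.32 in KO females, and none of these passed (smallest adjusted p = 0.103). In CT males the call was also lost when any 1 of the animals numbered 301, 305, 313 or 418 was left out (largest adjusted p = 0.0583), whereas in KO males it was kept in all 16 fits that left out 1 animal.

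The other membrane proteins gave no call. Lamp1, an abundant lysosomal membrane protein, stood at 536, 542, 543 and 500.3 CPM in CT males on CTD, against 521, 550.3, 558 and 649 CPM on HFC, with overlap. Its log2 fold changes were 0.10 ± 0.079 (SE) in CT males and 0.071 ± 0.079 in KO males, opposite in sign to Lamp2. Scarb2, the receptor that carries glucocerebrosidase to the lysosome, stood at 255, 254, 256 and 246 CPM in KO males on CTD, and at 191, 208, 234 and 221 CPM with HFC; these animals did not overlap, but the change of -0.24 ± 0.094 (SE), adjusted p = 0.0608 missed the threshold. Mcoln1, the calcium channel of the lysosomal membrane, stood at 39.1, 39.8, 41.0 and 41.1 CPM in KO males on CTD, against 35.7, 36.8, 40.9 and 35.9 CPM on HFC. It had log2 fold changes of -0.090 ± 0.061 and -0.11 ± 0.061 (SE) in CT and KO males and of -0.034 and -0.028 in CT and KO females.

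Of the 11 proteases, 3 rose in CT males and 4 in KO males, and none fell. Over all tested genes, 10.6% were called higher and 9.4% lower in CT males, and 15.5% and 13.6% in KO males. Lgmn, legumain or asparagine endopeptidase, which trims other cathepsins (chromosome 12, 102394084 to 102439813, minus strand), rose in both genotypes of males. Its level on CTD was 42.5, 52.2, 61.9 and 75.9 CPM in CT males and 45.6, 49.1, 43.6 and 48.9 CPM in KO males. On HFC it was 84.6, 83.7, 104 and 112 CPM in CT males and 133, 100.4, 97.1 and 115 CPM in KO males. All 8 HFC males lay above all 8 CTD males, with log2 fold changes of 0.72 ± 0.15 (SE), adjusted p = 0.00341 in CT and 1.25 ± 0.15 (SE), adjusted p = 1.94e-05 in KO males. The difference between these 2 effects, 0.53 ± 0.21 (SE), had a p of 0.0237 before and 0.794 after adjustment over all genes. Female livers varied more: Lgmn ran at 31.9, 38.1 and 78.1 CPM in CT and 34.9, 71.2 and 73.9 CPM in KO females on CTD, and at 113, 104 and 84.0 CPM and 143, 73.5 and 123 CPM on HFC. The CT females of the 2 diets did not overlap and the KO females did, and neither change was called (1.02 ± 0.38 (SE), adjusted p = 0.174 in CT and 0.91 ± 0.38 (SE), adjusted p = 0.16 in KO females).

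Ctsc, cathepsin C or dipeptidyl peptidase 1, which activates serine proteases of immune cells, stood at 78.0, 119.7, 171 and 116 CPM in CT males and 112, 120.0, 105 and 89.8 CPM in KO males on CTD. On HFC the values were 227, 218, 180.2 and 184 CPM in CT and 192, 225, 172 and 189.6 CPM in KO males. No HFC male overlapped a CTD male, and both changes passed the test (0.74 ± 0.17 (SE), adjusted p = 0.00759 in CT and 0.87 ± 0.17 (SE), adjusted p = 0.00158 in KO males). Ctsb, cathepsin B, one of the abundant cysteine proteases, rose by a smaller factor. It went from 530.0, 527, 604 and 606 CPM on CTD to 656, 678, 722 and 779 CPM on HFC in CT males (0.32 ± 0.087 (SE), adjusted p = 0.0146). KO males held 569, 589, 572 and 579.7 CPM on CTD, against 867, 731, 752 and 728 CPM on HFC, again without overlap (0.41 ± 0.087 (SE), adjusted p = 0.00179). Some reads of Ctsb cannot be assigned with certainty, since 12.8% of its exon bases overlap Fdft1 on the other strand and the strand setting of the counting is not given in the sources used here.

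Ctsd, the aspartic protease cathepsin D, is described because its call turned on single livers, a choice made after its values were seen. It was called in KO males, at 0.43 ± 0.12 (SE), adjusted p = 0.0127. The call was lost without the KO male 414 on HFC, whose 452 CPM stood above the 338, 349 and 363 CPM of the other HFC males. CT males gave 0.23 ± 0.12 (SE), adjusted p = 0.206, and there the control male 320, at 354 CPM, stood above the other CTD males at 258 to 268 CPM; without it Ctsd was called in CT males too. Ctsd shares 34.4% of its exon bases with Gm49369 on the same strand, so its reads may be split between them. Tpp1, tripeptidyl peptidase 1, was the 1 protease called in females. Its CPM were 76.3, 76.9 and 80.6 in CT and 77.9, 83.9 and 86.7 in KO females on CTD, and 100.5, 101 and 107 and 110.4, 106 and 107 on HFC. All 6 HFC females lay above all 6 CTD females, with 0.38 ± 0.10 (SE), adjusted p = 0.0345 in KO and 0.40 ± 0.10 (SE), adjusted p = 0.057 in CT females. Male Tpp1 stood at 0.15 ± 0.064 in CT and 0.025 ± 0.064 (SE) in KO males, neither of them called; with library totals these values were 0.38 and 0.30 and passed (adjusted p = 0.000664 and 0.00206). The remaining proteases Ctsa, Ctsf, Ctsh, Ctsk, Ctsl and Ctsz were called in none of the 4 comparisons. Of these, Ctsl, cathepsin L, had negative values throughout, from -0.49 in CT females to -0.14 in KO males. With library totals, however, the value in KO males was 0.145 and in KO females 0.043. Some reads of Ctsl cannot be assigned with certainty either. Of its exon bases, 26.8% overlap Gm47123 on the other strand and 6.09% overlap Gm49230 on the same strand.

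Genes of lipid breakdown were represented by 6 members, of which the same 2 rose in CT and KO males. The shares of all tested genes called higher were 10.6% in CT and 15.5% in KO males. Psap encodes the precursor of the saposins, small proteins that present sphingolipids to their hydrolases. Its CPM on CTD were 426, 423, 435 and 469 in CT males and 435, 476, 429 and 449 in KO males, and on HFC 527, 539, 671 and 707 and 771, 617, 679.6 and 652. Every HFC male exceeded every CTD male (0.48 ± 0.10 (SE), adjusted p = 0.00353 in CT and 0.60 ± 0.10 (SE), adjusted p = 0.000317 in KO males). Asah1, acid ceramidase, which cuts ceramide into sphingosine and fatty acid, stood at 33.2, 34.0, 34.9 and 38.4 CPM in CT and 30.1, 32.7, 34.7 and 33.9 CPM in KO males on CTD. HFC values were 43.0, 40.2, 42.9 and 46.6 CPM and 54.7, 42.6, 42.4 and 49.0 CPM, with no overlap between the diets, and log2 fold changes of 0.30 ± 0.083 (SE), adjusted p = 0.0181 in CT and 0.52 ± 0.083 (SE), adjusted p = 0.000181 in KO males. In CT females Psap went from 303, 418 and 346 CPM to 499.6, 517 and 446 CPM, groups that did not overlap, but the change was not called (0.45 ± 0.17 (SE), adjusted p = 0.155). KO females held 362, 451 and 459.8 CPM and then 539.6, 415 and 519 CPM, with overlap (0.21 ± 0.17 (SE), adjusted p = 0.453). The difference of the Psap effect between the sexes in KO mice, female minus male, was -0.42 ± 0.18 (SE), with an unadjusted p of 0.0295 and an adjusted p of 0.454. Asah1 differed little in females, at -0.040 ± 0.23 in CT and 0.059 ± 0.23 (SE) in KO mice.

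Lipa, the lysosomal acid lipase that frees cholesterol and fatty acids from lipoprotein lipids, gave no call. Its CPM were 212, 223, 194 and 244 in CT males on CTD, against 271, 221, 268 and 221 on HFC, and the groups overlapped (0.17 ± 0.10 (SE), adjusted p = 0.265). KO males gave 0.099 ± 0.10, CT females 0.062 ± 0.14 and KO females 0.25 ± 0.14 (SE). Gm2a, the activator of ganglioside breakdown, held 134, 139, 134 and 171 CPM in CT males on CTD, against 137, 149.7, 182 and 193 CPM on HFC. Its changes were 0.19 ± 0.12 in CT and 0.086 ± 0.12 in KO males, not called. Smpd1, acid sphingomyelinase, and Grn, progranulin, stayed within -0.25 and 0.15 on the log2 scale over the 4 comparisons.

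The 9 enzymes of sugar chains, the sulfatase Sgsh among them, included the member with the smallest p of the 38 in both genotypes of males. Hexa, the alpha subunit of hexosaminidase A, which removes terminal hexosamines from gangliosides (chromosome 9, 59539540 to 59565109, plus strand), stood at 43.7, 40.8, 41.3 and 47.5 CPM in CT males and 44.1, 43.8, 41.6 and 46.0 CPM in KO males on CTD. HFC livers held 61.6, 57.4, 68.6 and 69.6 CPM in CT males and 68.1, 66.4, 64.7 and 79.9 CPM in KO males. The diets were far apart with no overlap in either genotype, and Hexa was 1.48-fold higher in CT males (0.57 ± 0.081 (SE), adjusted p = 0.00024) and 1.59-fold higher in KO males (0.67 ± 0.081 (SE), adjusted p = 1.37e-05). In females the CPM were 49.7, 64.3 and 57.6 in CT and 46.0, 63.3 and 60.5 in KO mice on CTD, and 72.0, 74.2 and 66.4 and 75.2, 65.2 and 84.1 on HFC. These groups did not overlap within a genotype either, but the changes missed the threshold (0.31 ± 0.15 (SE), adjusted p = 0.262 in CT and 0.40 ± 0.15 (SE), adjusted p = 0.109 in KO females). A stretch of 12.8% of the Hexa exon bases overlaps Tmem202 on the other strand.

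Man2b1, lysosomal alpha-mannosidase, went from 113, 116, 118 and 129 CPM on CTD to 132, 136, 141 and 159.6 CPM on HFC in CT males (0.26 ± 0.075 (SE), adjusted p = 0.0232). In KO males it went from 111, 108, 111 and 121 CPM to 149, 156, 150.5 and 132 CPM (0.38 ± 0.075 (SE), adjusted p = 0.00118). Neither pair of groups overlapped. Gaa, the acid alpha-glucosidase that degrades glycogen, rose in CT males from 80.0, 88.1, 89.0 and 100.2 CPM to 99.6, 104, 126 and 103 CPM, with 1 CTD animal at 100.2 CPM above the lowest HFC animal at 99.6 CPM (0.27 ± 0.085 (SE), adjusted p = 0.0307). KO males had 102, 104, 96.2 and 98.7 CPM on CTD, against 88.8, 105, 92.3 and 102 CPM on HFC, a change of -0.047 ± 0.085 (SE), adjusted p = 0.727. The difference between the genotypes in this effect, -0.32 ± 0.12 (SE), had a p of 0.016 before and 0.754 after adjustment. Neu1, neuraminidase 1, which removes sialic acids, stood at 36.1, 40.2, 36.3 and 37.7 CPM in CT males on CTD, against 40.0, 44.5, 43.1 and 45.4 CPM on HFC, and missed the threshold at 0.20 ± 0.072 (SE), adjusted p = 0.0554. Gla, Glb1, Gusb, Naglu and Sgsh were not called in any of the 4 comparisons, with values between -0.33 for Sgsh in KO females and 0.52 for Gla in CT females. Of the Sgsh exon bases, 21.6% overlap Card14 on the other strand.

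Of the acid phosphatases, Acp5, tartrate-resistant acid phosphatase and a marker of osteoclasts and some macrophages, rose in CT males from 94.95, 93.2, 84.4 and 88.4 CPM to 95.6, 103, 109 and 111 CPM, by 0.21 ± 0.069 (SE), adjusted p = 0.0364. The lowest HFC male and the highest CTD male differed by less than 1 CPM, and the call was lost without any 1 of the animals numbered 305, 313, 417, 418 or 543. Acp5 gave 0.13 ± 0.069 (SE), adjusted p = 0.155 in KO males. Acp2, the common lysosomal acid phosphatase, stood at 54.9, 56.1, 64.2 and 49.9 CPM in CT males on CTD, against 63.0, 59.0, 63.1 and 62.6 CPM on HFC. Its changes were 0.14 ± 0.084 in CT and 0.21 ± 0.084 (SE) in KO males, not called. Of the Acp2 exon bases, 12.6% overlap Ddb2 on the other strand.

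The 3 proton pump subunits behaved differently. Atp6v1a, the subunit that hydrolyses ATP in the cytosolic part of the pump (chromosome 16, 44085402 to 44139705, minus strand), rose in both genotypes of males. Its CPM on CTD were 46.5, 46.9, 50.1 and 47.2 in CT males and 48.3, 43.8, 45.1 and 45.5 in KO males, and on HFC 57.2, 55.1, 57.0 and 53.9 and 55.3, 54.0, 52.0 and 54.8. All 8 HFC males stood above all 8 CTD males, and the change was 0.23 ± 0.053 (SE), adjusted p = 0.00699 in CT and 0.24 ± 0.053 (SE), adjusted p = 0.00272 in KO males. Atp6v1h, a regulatory subunit of the same part, stood at 41.9, 38.3, 43.8 and 38.5 CPM in CT males on CTD, against 40.4, 40.1, 40.1 and 38.9 CPM on HFC. It was not called, at -0.026 ± 0.059 in CT and 0.046 ± 0.060 (SE) in KO males, although with library totals it read 0.205 in CT males and 0.323 in KO males (adjusted p = 0.0199 and 0.000737).

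Atp6v0d2, a membrane-part subunit best known from osteoclasts and macrophages, was barely detected in males and its call was lost without 1 liver. CT males had 0.644, 0.548, 0.416 and 1.26 CPM on CTD, against 1.63, 0.839, 2.99 and 1.41 CPM on HFC. KO males had 0.0938, 0.598, 0.487 and 0.785 CPM on CTD, against 10.3, 1.07, 0.951 and 1.14 CPM on HFC, where the animal numbered 414 stood far above the others. The fitted log2 fold change in KO males was 2.78 ± 0.85 (SE), adjusted p = 0.0238, and without that animal it was 1.10 with an adjusted p of 0.145; leaving out any of the CTD animals 298, 303 or 304 ended the call too. In CT males the value of 1.25 ± 0.83 (SE), adjusted p = 0.317 was not called. In females the fitted values were negative. CT females had 11.7, 11.97 and 5.39 CPM on CTD, against 3.39, 3.93 and 4.37 CPM on HFC, without overlap. KO females had 9.15, 14.9 and 11.4 CPM on CTD, against 19.6, 3.46 and 4.05 CPM on HFC, where the animal numbered 412 stood above all others. The changes were -1.31 ± 0.62 (SE), adjusted p = 0.267 in CT and -0.38 ± 0.58 (SE), adjusted p = 0.721 in KO females. Without the animal 412, Atp6v0d2 was called lower in KO females at -1.65 (adjusted p = 0.0144) and in CT females at -1.31 (adjusted p = 0.0244), the latter through the shared spread. The difference of the diet effect between the sexes, female minus male, was -2.60 ± 1.11 (SE) in CT mice, with an unadjusted p of 0.0292 and an adjusted p of 0.676, and -3.20 ± 1.11 in KO mice, with an unadjusted p of 0.00876 and an adjusted p of 0.322. The animals 414 and 412 also had the highest summed CPM of the 10 macrophage and monocyte markers in their groups, at 831 and 1169 CPM beside group means of 742 ± 101 and 768 ± 418 (SD). They were also highest in the lipid-associated macrophage markers, at 392 and 414 CPM beside means of 211 ± 123 and 225 ± 164. In the cholangiocyte markers they were highest at 234 and 192 CPM, beside means of 128 ± 74.8 and 107 ± 74.3. Both were highest in the T cell markers too, at 12.87 and 11.91 CPM. In the Kupffer cell markers the animal 412 was highest at 1423 CPM. The animal 414 was not highest there, since the animal 540 held the maximum of its group at 880.4 CPM. In the stellate cell markers the animal 414 was highest at 356.1 CPM and the animal 412 was not. Neither was highest in the endothelial or hepatocyte markers. The 4 osteoclast markers summed to at most 2.51 CPM in any liver. That liver was the animal 412 (group mean 1.70 ± 0.70, SD), and 414 was highest in its group at 2.31 CPM (mean 1.57 ± 0.51). The part that the markers of these lists play in the Atp6v0d2 level of the 2 animals was not tested.

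**Figure D3:**
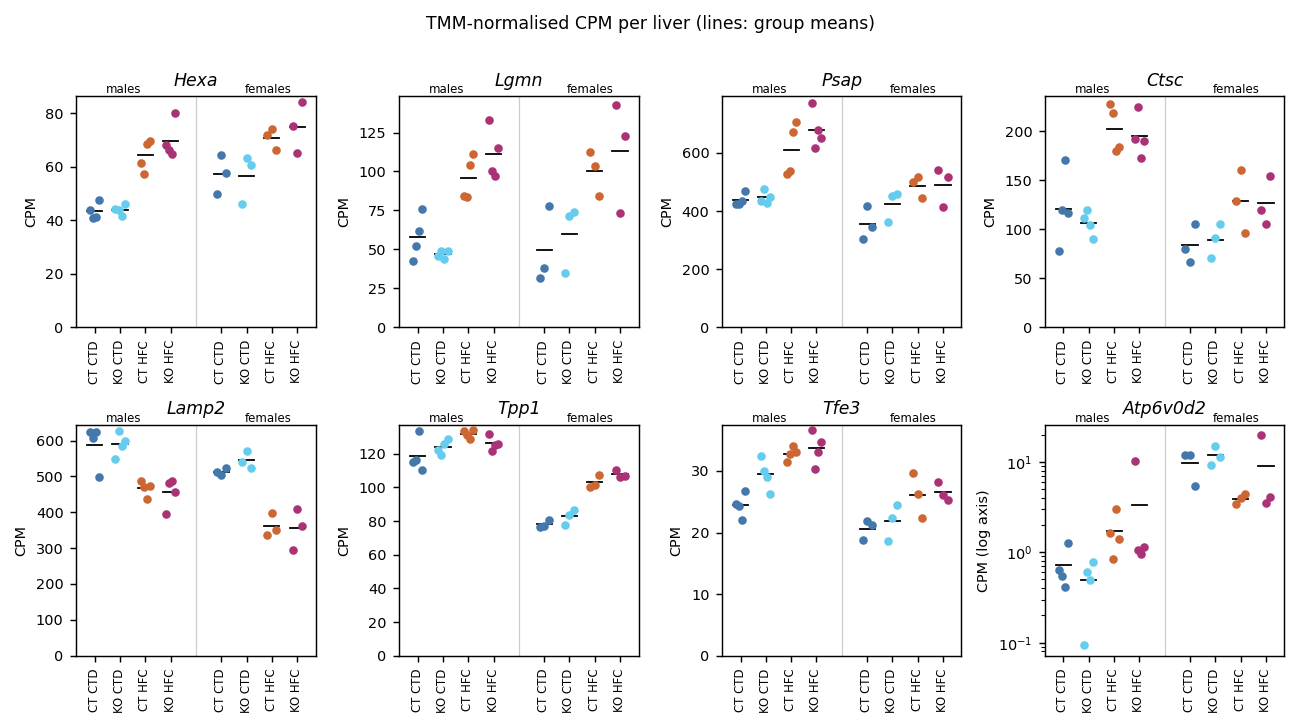
TMM-normalised CPM of 8 of the lysosomal genes in each liver (points) with group means (lines), by sex, genotype and diet; the axis of Atp6v0d2 is logarithmic and the others start at 0. Hexa, Lgmn, Psap and Ctsc stand higher and Lamp2 lower in all HFC males than in all CTD males, Tpp1 separates the diets in females, and 1 KO HFC liver of each sex stands apart in Atp6v0d2.

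Of the MiT/TFE factors, Tfe3 rose in CT males (chromosome X, 7762560 to 7775202, plus strand). CT males had 24.7, 24.2, 22.1 and 26.8 CPM on CTD, against 31.5, 32.7, 34.0 and 33.1 CPM on HFC, groups that did not overlap (0.42 ± 0.078 (SE), adjusted p = 0.00134). KO males already stood at 32.4, 30.0, 29.1 and 26.3 CPM on CTD and reached 36.6, 30.3, 33.1 and 34.8 CPM on HFC, with overlap (0.19 ± 0.078 (SE), adjusted p = 0.0694). KO against CT males on CTD, Tfe3 was 1.20-fold higher (0.27 ± 0.079), with an unadjusted p of 0.00329 and an adjusted p of 0.685, and 1 KO animal lay inside the CT range. In females the changes were 0.34 ± 0.13 (SE), adjusted p = 0.178 in CT and 0.28 ± 0.13 (SE), adjusted p = 0.212 in KO mice, in both of which the diets did not overlap.

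Tfeb, the best studied regulator of lysosomal genes, was not called in any diet comparison. Its CPM were 9.41, 9.41, 8.63 and 11.6 in CT males and 11.7, 10.4, 10.1 and 10.7 in KO males on CTD, and 8.63, 11.4, 9.69 and 10.8 and 9.86, 10.6, 11.3 and 8.96 on HFC. The groups overlapped, and the changes were 0.053 ± 0.11 and -0.080 ± 0.11 (SE). Mitf stood at 3.66, 3.68, 3.74 and 4.62 CPM in CT and 4.13, 3.98, 3.95 and 4.22 CPM in KO males on CTD, and at 4.27, 3.58, 4.31 and 5.44 CPM and 5.77, 4.30, 5.33 and 5.58 CPM on HFC. The KO groups did not overlap, but 0.37 ± 0.14 (SE), adjusted p = 0.0582 missed the threshold. Transcript levels say nothing of where the factors sit in the cell, which is how mTORC1 controls them.

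Since these factors bind the letters TCACGTG, the promoters were searched for them on both strands. RefSeq promoter windows of GRCm38.p6, from 250 bases before to 50 bases after a listed start, were available for 33 of the 38 genes, with 43 windows. The letters were found in 11 of the 33 genes (33.3%), against 1160 of 27025 genes with a window (4.29%). By window, 11 of 43 (25.6%) held them, against 3.77% of all 32851 windows. The shorter core CACGTG, an E-box that Myc and other factors bind too and that lies inside the longer motif, was found in 13 of the 33 genes (39.4%) and in 8.09% of all genes. The members were picked as lysosomal genes, many of which these factors are known to switch on through this motif. A higher share than over all genes could thus be foreseen from the choice of the set and is no test of it. The match nearest to the start in each of the 11 genes is shown with its flanks, 5′ to 3′ on the strand of the gene, to display the letters that these promoters share; capitals mark the motif, which reads CACGTGA on the other strand and TCACGTGA where both orders overlap.
Lamp1 (chr8:13159135-13159161, +): cgtgaccacaTCACGTGcggaacggag
Mcoln1 (chr8:3500463-3500489, +): ggcgccccgcTCACGTGAccgcggcgc
Ctsa (chr2:164833767-164833793, +): atgcagatgcTCACGTGAccagagcta
Ctsd (chr7:142387910-142387936, -): cgcccgcgtcTCACGTGAcccgttgag
Lgmn (chr12:102439126-102439152, -): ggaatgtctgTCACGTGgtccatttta
Gaa (chr11:119267812-119267838, +): ttctgtgcgaTCACGTGtttgactctg
Gla (chrX:134601184-134601210, -): gagatctcggTCACGTGAgcaactctc
Glb1 (chr9:114401019-114401045, +): tgcttctgagTCACGTGgcctacagag
Naglu (chr11:101070010-101070036, +): aaccttcaggTCACGTGgcccgaggtc
Sgsh (chr11:119355523-119355549, -): gcctgccgtgCACGTGAccgtggggag
Atp6v1a (chr16:44139375-44139401, -): tttttttaaaTCACGTGAtaggcttaa

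Genes with the motif were found among called and uncalled members. Of the 11 genes that rose in CT males, 9 had a window and 3 of them held the motif (Lgmn, Gaa and Atp6v1a), while 8 of the 23 uncalled genes with a window held it. In KO males 3 of 7 risen genes (Ctsd, Lgmn and Atp6v1a) and 8 of 25 uncalled genes held it. In Lgmn the motif lies in the window of the second of 2 listed starts, 50 bases before it. Lamp1, with 4 matches, and Mcoln1 and Ctsa, with 2 each, were not called in any diet comparison. The whole windows of Atp6v1a, which rose in both genotypes of males and holds the motif, and of Hexa, which rose in both and has neither the motif nor the core in this window, are given for comparison, with the motif in capitals. A match describes these letters and is no evidence of binding.
Atp6v1a (chr16:44139210-44139509, -): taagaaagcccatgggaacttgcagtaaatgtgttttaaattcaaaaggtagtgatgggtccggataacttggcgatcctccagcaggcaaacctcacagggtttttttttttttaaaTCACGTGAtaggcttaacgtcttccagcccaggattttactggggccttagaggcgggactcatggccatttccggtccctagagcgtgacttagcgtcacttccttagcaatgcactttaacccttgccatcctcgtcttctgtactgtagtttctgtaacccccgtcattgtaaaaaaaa
Hexa (chr9:59539290-59539589, +): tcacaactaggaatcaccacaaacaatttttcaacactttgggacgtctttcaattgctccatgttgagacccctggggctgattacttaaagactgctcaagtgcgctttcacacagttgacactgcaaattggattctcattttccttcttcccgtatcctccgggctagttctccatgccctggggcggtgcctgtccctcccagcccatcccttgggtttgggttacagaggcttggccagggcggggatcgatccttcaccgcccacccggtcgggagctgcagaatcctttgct

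Females gave few calls. Of the 38 genes, none was called in CT females, where 2.19% of all tested genes were called, 0.936% higher and 1.26% lower, and 10 had an unadjusted p under 0.05 (smallest adjusted p = 0.057, for Tpp1); DESeq2 called 3, namely Tpp1 higher and Lamp2 and Ctsl lower. In KO females Tpp1 rose and Lamp2 fell, 2 of 38, where 8.59% of all tested genes were called, 3.94% higher and 4.65% lower. The median log2 fold change of the 38 was 0.122 in CT and 0.113 in KO females, beside 0.00429 and 0.0214 over all genes. The animals of the 2 diets did not overlap for 17 of the 38 genes in CT females, 13 of them higher and 4 lower on HFC, against 28.3% of all tested genes, 14.3% higher and 14.1% lower. In KO females the count was 10, with 8 higher and 2 lower, against 26.4% of all genes, 12.2% higher and 14.1% lower. In CT males it was 11, with 10 higher and 1 lower, against 21.6% of all genes, 11.4% higher and 10.2% lower. In KO males it was 15, with 13 higher and 2 lower, against 30% of all genes, 15.4% higher and 14.7% lower. Both calls in KO females were lost when any 1 of the KO animals 307, 309, 317, 412 or 419 was left out, that of Tpp1 also without the CT animals 306, 420 or 510, and without the KO HFC animal 413 as many as 8 of the 38 were called. In CT females 4 genes passed once the KO HFC animal 412, which enters only through the shared spread, was left out, and 2 passed without 413. The shares of all genes called in females are those of the edgeR fit of all females. The counts by DESeq2 or without single females have no such share beside them. They are not read as results about the members. The diet effects of the sexes were compared in 1 fit of both tables: no member differed between the sexes by edgeR in CT mice (3 at an unadjusted p under 0.05) or in KO mice (7 at an unadjusted p under 0.05). Of all genes, 0.00681% were called in CT mice, all of them lower, and 0.157% in KO mice, 0.0545% higher and 0.102% lower. The smallest adjusted p, 0.198, was that of Tpp1 in KO mice (female minus male 0.33 ± 0.098), which DESeq2 called at an adjusted p of 0.00367. Sex and table cannot be told apart.

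Between the genotypes no change of the 38 genes was called. KO against CT, edgeR called 0 of 38 on CTD in males (2 at an unadjusted p under 0.05), 0 on HFC in males (0), 0 on CTD in females (2) and 0 on HFC in females (0), and DESeq2 also called 0 in each; 0% of all tested genes were called by edgeR in these comparisons. Over all genes DESeq2 called 4 higher and 7 lower on CTD and 0 higher and 3 lower on HFC in males, and 0 in females. The animals of the genotypes did not overlap for 2 of the 38 members on CTD in males, against 3.99% of all genes (1.94% higher and 2.05% lower), and for 0 on HFC, against 2.17% (1.09% higher and 1.07% lower). In females this held for 4 members on CTD, against 9.18% (4.48% higher and 4.7% lower), and for 1 on HFC, against 5.46% (2.8% higher and 2.66% lower). Setting apart Ctsk and Atp6v0d2, whose values follow, the folds of the other 36, KO over CT, lay between 0.805 and 1.20 on CTD and between 0.898 and 1.19 on HFC in males. In females they lay between 0.857 and 1.37 on CTD and between 0.772 and 1.25 on HFC. The 95% intervals of these folds reached from 0.656 to 1.37 and from 0.76 to 1.44 in males, and from 0.726 to 2.03 and from 0.548 to 1.88 in females, taking the lowest and the highest bound over the 36 genes. They are built from the SE with the normal quantile and are narrower than the quasi-likelihood test would give. An interval that leaves out a fold of 1 can thus go with a p above 0.05. The 2 genes set apart had wider intervals. In females Atp6v0d2 had the largest fold of the 38, 2.32 on HFC (95% interval 1.01 to 5.34, unadjusted p = 0.0749, adjusted p = 1). Its KO livers there were the animal 412, at 19.6 CPM, and the others at 3.46 and 4.05 CPM, inside the CT range of 3.39 to 4.37 CPM. Its fold was 1.22 on CTD in females (0.548 to 2.71), 0.676 on CTD in males (0.183 to 2.49) and 1.962 on HFC in males (0.734 to 5.24). Ctsk had folds of 0.989 on CTD and 1.39 on HFC in females (0.499 to 1.962 and 0.74 to 2.60), and of 0.713 and 1.05 in males (0.361 to 1.41 and 0.588 to 1.88). The interaction of genotype with diet was called for 0 members in males (2 at an unadjusted p under 0.05, Gaa and Lgmn) and 0 in females (1, Sgsh), where 0% of all tested genes were called.

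The rest of the lysosomal apparatus was read from 4 further lists. In CT males, where 10.6% of all genes were called higher and 9.4% lower, 9 of 24 tested other hydrolases and activators rose and none fell, with the smallest p for Dnase2a, an acid nuclease (0.50 ± 0.074), Plbd2, a phospholipase-B-like protein (0.51 ± 0.077), Ctss, cathepsin S of antigen-presenting cells (1.16 ± 0.18), and Lyz2, macrophage lysozyme (1.27 ± 0.22). Of 27 other membrane proteins and sorting receptors 7 rose and 1 fell, with Slc11a1, a metal transporter of phagosomes, at 0.85 ± 0.16, Laptm5 of blood cells at 1.09 ± 0.21, Cd68, a macrophage marker, at 1.02 ± 0.23 and Laptm4b at 0.28 ± 0.072 (SE). Of 15 other V-ATPase subunits 6 rose and 1 fell, with Atp6v1b2 at 0.40 ± 0.074, Atp6v1g1 at 0.31 ± 0.072, Atp6v1f at 0.25 ± 0.070 and the membrane subunit Atp6v0a2 at -0.25 ± 0.069. Among 24 tested genes of autophagy and its control by mTORC1 7 rose and 1 fell, with Sqstm1, the autophagy receptor p62, at 0.63 ± 0.13, Gabarapl1 at 0.48 ± 0.14, Tfec, a macrophage relative of Tfeb, at 1.10 ± 0.28 and Ulk1, the kinase that starts autophagy, at -0.50 ± 0.12 (SE). The counts in KO males, higher and lower, were 10 and 0 of 24, 7 and 2 of 27, 6 and 2 of 15, and 3 and 3 of 24 in the same order, where 15.5% of all genes were called higher and 13.6% lower. The membrane and the autophagy lists were near this background. In CT females all 4 lists had 0 calls by edgeR (7, 8, 2 and 4 genes at an unadjusted p under 0.05), and in KO females 1, 2, 2 and 3 rose and 1, a membrane protein, fell.

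Macrophage markers moved with the diet in the same livers. Over all tested genes, edgeR called 10.6% higher and 9.4% lower on HFC in CT males, and 15.5% and 13.6% in KO males. In females these shares were 0.936% and 1.26% in CT mice and 3.94% and 4.65% in KO mice. In males 9 of 10 macrophage and monocyte markers and 7 of 8 Kupffer cell markers rose on HFC in CT mice, and all 10 and all 8 in KO mice. Of both lists edgeR called 0 in females, where 1 and 4 macrophage markers in CT and KO mice and 0 Kupffer cell markers had an unadjusted p under 0.05. Summed over the 16 markers of these lists that are not lysosomal genes themselves, male livers held 577 ± 113 CPM (SD, n = 4) in CT and 436 ± 46.9 in KO mice on CTD, and 1088 ± 245 and 1336 ± 118 on HFC. The lowest HFC male, at 924.8 CPM, was above the highest CTD male, at 674 CPM. Female sums were 691 ± 439 CPM (SD, n = 3) in CT and 836 ± 348 in KO mice on CTD, and 1179 ± 234 and 1473 ± 700 on HFC, with overlap. Of the 6 markers of lipid-associated macrophages, 2 rose and 1 fell in CT males, 5 rose and 1 fell in KO males, 2 rose in CT females and 4 in KO females, the lysosomal Cd63 among them in both KO groups. The 1 that fell was Fabp5, a fatty acid binding protein. Some markers of other cell types were called too. Of 6 T cell markers 3 rose in CT males and 4 in KO males, and their sum, 5.03 to 5.62 CPM in CT and 4.33 to 5.35 CPM in KO males on CTD, was 7.29 to 10.6 and 8.03 to 12.9 CPM on HFC, without overlap. Of 5 cholangiocyte markers, of which Spp1 is also on the lipid-associated macrophage list, 3 rose in KO males, where the sum went from 51.6 ± 14.1 to 128 ± 74.8 CPM, and edgeR called 0 in CT males (1 at an unadjusted p under 0.05). Of 6 endothelial markers 1 rose in CT and 3 in KO males, and of 6 stellate cell markers 1 rose in KO males. In lists this short, 1 call in males is near the share of all genes. In females edgeR called 0 markers of these 4 lists, where 5, 1, 3 and 1 in CT and 2, 0, 2 and 1 in KO mice had an unadjusted p under 0.05. Of the 7 hepatocyte markers 1 fell in CT males, 2 in KO males, 1 in CT females and 3 in KO females. Their sum in females was 162300 to 165900 CPM in CT and 148000 to 172900 CPM in KO mice on CTD, and 93480 to 139900 and 97040 to 110300 CPM on HFC, without overlap. In KO males it was at least 89100 CPM on CTD and at most 80970 CPM on HFC, while CT males overlapped. The 38 lysosomal genes together summed to 5151 ± 221 and 5221 ± 143 CPM in CT and KO males on CTD and to 5672 ± 339 and 5849 ± 166 on HFC. The part that these cell types play in the change of the lysosomal genes was not tested.

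**Figure D4:**
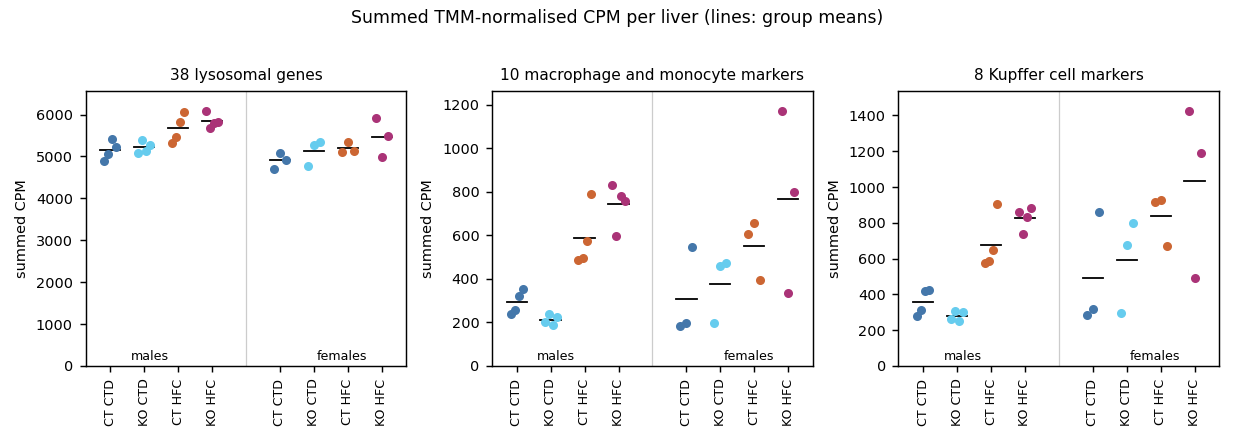
Summed CPM per liver (points) with group means (lines) for the 38 lysosomal genes, 10 macrophage and monocyte markers and 8 Kupffer cell markers, by sex, genotype and diet; all axes start at 0. Both marker sums stand higher in every HFC male than in every CTD male, while the lysosomal sums of the diets overlap in CT males and not in KO males.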

How the data were processed

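Whole-liver RNA from 28 mice was sequenced by BGI with DNBSEQ libraries, per the labels' protocols. The authors deposited raw counts per gene and CPM, 1 table of each for males and females. GRCm38 (mm10), FastQC and edgeR are named in the submitters' processing notes; aligner, counter, annotation and strand setting were not given in any source used. The deposited CPM were the counts over each library's total. No column of per-sample values was left unused.

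Counts were tested in R 4.3.3 with edgeR 4.0.16 (filterByExpr, TMM factors, robust quasi-likelihood fit, a mean per group, the groups of a sex in 1 fit), with Benjamini-Hochberg adjustment over all tested genes and a threshold of 0.05. Fold changes are given as log2 with an SE computed as the log2 value divided by the root of its F statistic. The 95% intervals of folds take the normal quantile times this SE, so they are narrower than the test would give. The diet effects of the sexes were compared in 1 fit of both tables. Replicates are separate animals by their numbers, so p-values measure the spread between animals. Library totals are in the report; counting error is small for most members, and Ctsk and Atp6v0d2 in males rest on few counts. Alternatives were library totals, no filter, the 2 compared groups only, DESeq2 1.42.0, limma 3.58.1 on log2(deposited CPM + 0.5), leaving out the animals numbered 500 and above, and leaving out each animal. The fits were tested on simulated data. Levels per kilobase use the merged exon length of GENCODE M21, and gene coordinates are those of GRCm38.

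The 38 genes, the other lists and the markers were chosen with earlier results of these data known. Per role, the values of each animal are given for up to 4 genes with the smallest p in any diet comparison, and of each further list up to 4 called genes with the smallest p in CT males are named.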

Additional observations from a re-analysis of the deposited data

Results flagged for a closer look

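In groups of 4 males, 10 of 152 values of a gene in a group had 1 animal far from the other 3 by Dixon's test at the 95% level, a test that chance passes in about 1 of 20 groups; groups of 3 females were not tested. The CT male 320 on CTD accounted for 5 of them. Its Lamp1 was 500 CPM where the others had 536 to 543, and its Lamp2 498 CPM against 608 to 625. Its Ctsd was 354 CPM against 258 to 268, its Gm2a 171 CPM against 134 to 139 and its Mitf 4.62 CPM against 3.66 to 3.74. This liver also had the highest marker sums of its group for lipid-associated macrophages (242 CPM beside a mean of 157 ± 61.9, SD) and cholangiocytes (80.9 beside 51.7 ± 21.9). The same held for Kupffer cells (425 beside 359 ± 75.0), macrophages and monocytes (355 beside 292 ± 54.3) and endothelial cells (185 beside 162 ± 19.4). It was not highest for the T cell, stellate cell, hepatocyte or osteoclast markers. The part of these cell types was not tested. The KO male 303 on CTD had 308 CPM of Ctsd against 264 to 271 and 40.3 CPM of Atp6v1h against 35.8 to 36.5. The CT male 417 on HFC had 59.0 CPM of Acp2 against 62.6 to 63.1. The KO male 414 on HFC had 1.56 CPM of Ctsk against 0.579 to 0.733 and 10.3 CPM of Atp6v0d2 against 0.951 to 1.14.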

How the results depend on the processing

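No paired analysis was possible because every animal has its own number and no number is shared between groups. Scaling moved the counts most. With library totals and with limma on deposited CPM, 23 members were higher in CT males, 28 in KO males and 13 in KO females in each, and 9 and 10 in CT females; 0 were lower in CT males, KO males and KO females. Both read 3 uncalled values with the other sign and called them: Atp6v1h in CT males at 0.205 and 0.202, Ctsh in KO males at 0.258 and 0.257, and Smpd1 in KO males at 0.227 and 0.224. Without the animals numbered 500 and above, which leaves 1 CT female on HFC assumed to vary like the other groups, 7 were higher and 0 lower in CT males and 0 were higher in KO females. DESeq2 called 2 lower in KO males, 1 higher and 2 lower in CT females, and 1 sex difference in KO mice. With the 2 compared groups only, 1 was lower in CT females and 0 were higher and 0 lower in KO females, where no filter on low counts also left 0 higher. Leaving out each animal gave 6 to 13 higher and 0 to 1 lower in CT males, 8 to 14 and 1 to 2 in KO males, 0 to 1 and 0 to 3 in CT females, and 0 to 6 and 0 to 2 in KO females. It gave 0 calls for genotype, interaction and sex difference. Apart from scaling and fewer samples, which follow from the alternative itself, the cause was not tested. Low counts limit the precision of Ctsk and of Atp6v0d2 in males. The member counts in these alternatives are given without the share of all genes called in the same fit. They describe the processing and are not read as results about the members.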
